A study of Homo sapiens with 6 samples.

Results

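Inflammatory chemokines and interleukin-1 cytokines, 10 ligands in all, were followed in DU145, a human prostate cancer cell line, after overexpression of the circular RNA circCSPP1. They are the rows of the deposited expression table whose symbol is CXCL1, CXCL2, CXCL3, CXCL5, CXCL8, CXCL16, CCL2, CCL20, IL1A or IL1B, 10 of the 19727 genes in the table, and the rule uses their names and no measured value. The question of the comparison was which transcripts change when circCSPP1 is raised. Stable DU145 lines were made with a control lentivirus (lentivirus-NC, labelled NC and of normal genotype) or with lentivirus-circCSPP1 (labelled OE, circCSPP1 overexpression), and puromycin selection was described for all lentiviral lines. Each group had 3 libraries of polyadenylated RNA. The groups came from different vectors, so a difference between the groups cannot be told apart from a difference between the selected lines. The labels do not say whether the replicates were separate cultures, so p-values measure the spread between these libraries, which may be technical.

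Chemokines are small secreted proteins that guide leukocytes. CXCL1, CXCL2, CXCL3, CXCL5 and CXCL8 belong to the CXC chemokines that carry a glutamate-leucine-arginine motif and attract neutrophils through the receptors CXCR1 and CXCR2, CXCL16 is a membrane-anchored ligand of CXCR6, CCL2 attracts monocytes through CCR2, and CCL20 binds CCR6. IL1A and IL1B encode the cytokines that signal through the receptor IL1R1. In epithelial tumour cells most of these genes are switched on by the transcription factor NF-kB, which binds kappaB sites near their starts, and their mRNAs are short-lived because proteins such as ZFP36 bind AU-rich elements in their 3′ untranslated regions (UTRs).

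The kappaB sites are shown first because the same site lies near the start of members that passed the test described below and of members that did not. RefSeq promoters (GRCh38.p14, 250 bases before to 50 bases after the gene start) were at hand for 8 of the 10 members, CXCL16 and CCL2 being the others. They were searched on both strands for GGAATTTCC, and 5 of the 8 held it, against 0.560% of the 27305 genes with a promoter and 0.607% of the 9725 of them that were tested here. The matches lay 77 to 91 bases before the RefSeq start, on the strand of the gene. CXCL1, CXCL2 and CXCL3 are close relatives with near-identical bases around the match, so their matches are not independent of each other. In the lines below the match is in capitals.
CXCL8: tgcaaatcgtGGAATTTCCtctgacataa
CXCL1: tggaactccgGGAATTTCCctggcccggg
CXCL2: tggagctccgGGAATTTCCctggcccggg
CXCL3: tggagctccgGGAATTTCCctggcccggc
CXCL5: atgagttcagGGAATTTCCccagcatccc
The matches are at chr4:73740478-73740486 for CXCL8, chr4:73869315-73869323 for CXCL1, chr4:74099264-74099272 for CXCL2, chr4:74038759-74038767 for CXCL3 and chr4:73998759-73998767 for CXCL5. CXCL8 and CXCL1 are read from the plus strand and the other three from the minus strand. The longer kappaB consensus, which overlaps this match, was found in CXCL1, CXCL2, CXCL3, CXCL5 and CCL20, 5 of 8 members, against 13.3% of all genes with a promoter and 17.6% of those tested. In CCL20 it read gttgccacatGGGGTTTTCCccattgatca on the strand opposite to the gene, with its match at chr2:227813763-227813772. A match to the AP-1 motif TGANTCA was present in CXCL8 (137 bases before the start) and in IL1A, 2 of 8 members, against 9.37% of all genes and 6.86% of those tested. These matches are letters in a window and not shown to be bound in these cells. The gene coordinates given below are from GENCODE, in which CXCL2, CXCL3, CXCL5 and CCL20 start further upstream than in RefSeq. The kappaB matches of those genes therefore lie inside the coordinates given for them.

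Expression is given as FPKM, a fragment count divided by transcript length in kilobases and by the size of the library, which allows levels of different genes to be set side by side. Tests were made on log2(FPKM + 1) with limma over the 12322 genes with an average of 1 FPKM or more, a rise or fall means an adjusted p under 0.05 (Benjamini-Hochberg over all 12322), and fold changes on this scale understate the change of low genes. The libraries held 28900000 to 36500000 fragments, read from the steps between low values, and the groups overlapped in depth. CSPP1, the host gene of circCSPP1, averaged 9.54 ± 0.493 FPKM under lentivirus-NC and 19.5 ± 4.44 FPKM under lentivirus-circCSPP1 (SD, n = 3 each), a value that does not separate the linear from the circular RNA. By qRT-PCR the study reported that its lentiviral vectors altered circCSPP1 in DU145 and left CSPP1 mRNA unchanged. Of 7 epithelial markers 6 were tested, and KRT8, KRT18, KRT19, EPCAM and CDH1 were lower and KRT7 higher in lentivirus-circCSPP1, with sums of 3889 to 4051 FPKM in lentivirus-NC and 3044 to 4033 FPKM in lentivirus-circCSPP1. The prostate luminal markers KLK2, KLK3 and FOLH1 were at 0 in all 6 libraries. The 12 leukocyte markers summed to 47.2 to 52.7 FPKM in lentivirus-NC and 37.2 to 52.2 FPKM in lentivirus-circCSPP1, nearly all of it CD68, while PTPRC was at most 0.08 FPKM and CD3E and MS4A1 were at 0. The 6 fibroblast or endothelial markers summed to 3.22 to 4.93 FPKM and 1.49 to 2.5 FPKM, and COL1A1 among them was lower; the part of these markers in the results was not tested. Replicate 1 of lentivirus-circCSPP1 stood apart from replicates 2 and 3 of that group. Over 7663 genes its departure from them correlated with the GC content of the transcript (Spearman's rho across genes 0.807, against 0.114 at most in size among lentivirus-NC libraries). The same measure gave -0.753 for replicate 2 and -0.555 for replicate 3, each set against a pair that includes replicate 1. Values without replicate 1 and after a correction for GC content and length are therefore given where they change a call.

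CXCL2 and CXCL8 rose, and they were the highest members. Of the 10 members 7 passed the filter and 2 of them the test, both higher, while CXCL1, CXCL3, CXCL5, CXCL16 and CCL20 did not pass the test. The 2 of 7 (28.6%) stand beside 11.4% of all tested genes called, which splits into 4.69% higher and 6.66% lower. The members were chosen with earlier results of these data known. The median log2 fold change of the 7 was -0.06, beside -0.03 for all tested genes, with 3 of the 7 above zero and 4 below. Without lentivirus-circCSPP1 replicate 1, 5 of the 7 passed: CXCL2, CXCL3 and CXCL8 rose and CXCL1 and CXCL16 fell, where 3512 genes were called in all. Without any 1 lentivirus-NC library the count was 1, CXCL2, where 300 to 407 genes were called in all.

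**Figure D1:**
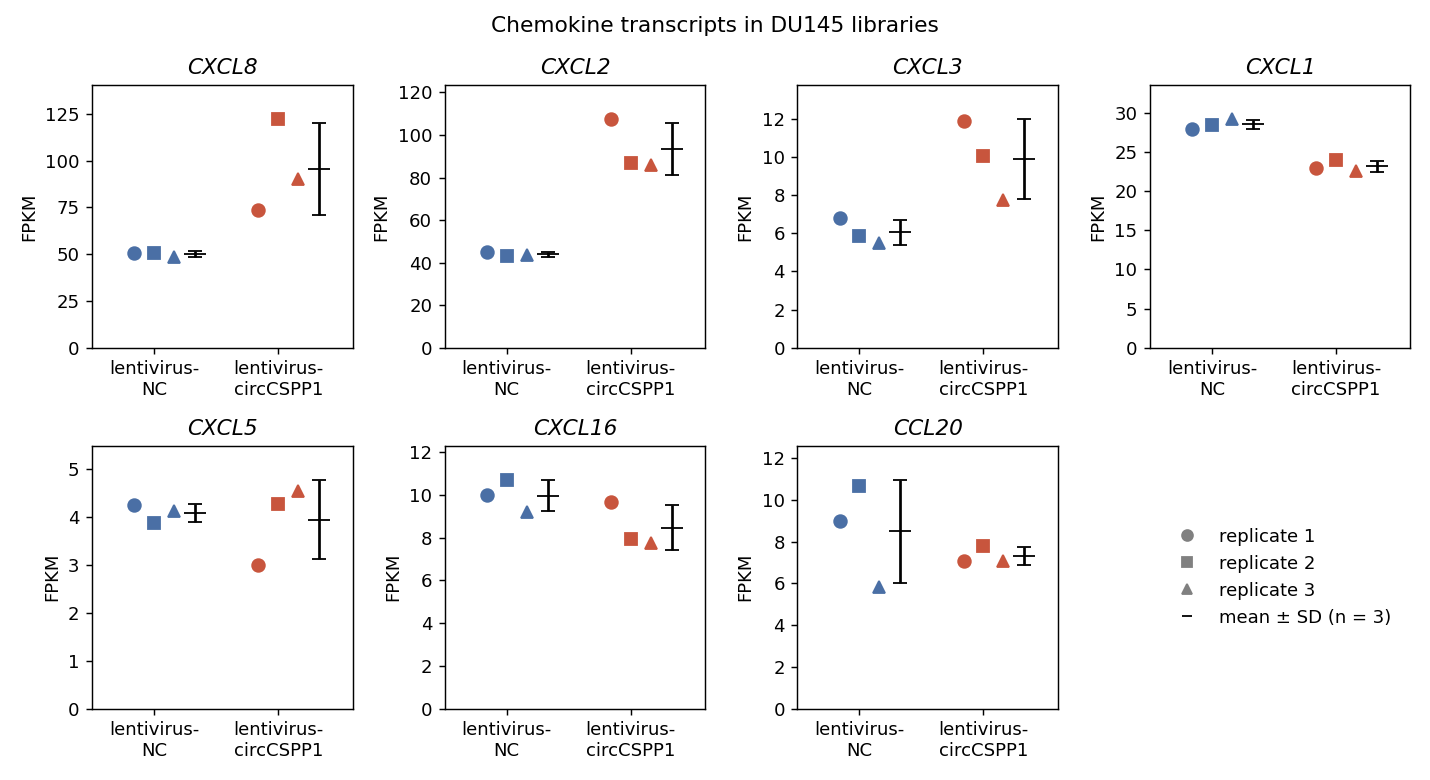
FPKM (vertical axes, from 0) of the 7 tested members in each of the 3 lentivirus-NC (blue) and 3 lentivirus-circCSPP1 (red) libraries; marker shapes give the replicate, and bars the mean ± SD of 3. CXCL8, CXCL2 and CXCL3 lie higher in every lentivirus-circCSPP1 library than in any lentivirus-NC library, CXCL1 lies lower, and CXCL5, CXCL16 and CCL20 overlap.

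CXCL2 (ENSG00000081041, chr4:74097035-74099293, minus strand, GRCh38), a neutrophil chemokine also known as MIP-2 alpha, had 45.2, 43.0 and 43.6 FPKM under lentivirus-NC, in replicates 1, 2 and 3, and 107, 86.9 and 86.0 FPKM under lentivirus-circCSPP1. Values below are in the same order. The groups did not overlap, and the lowest lentivirus-circCSPP1 library lay far above the highest lentivirus-NC library. The means were 43.9 ± 1.17 and 93.4 ± 12.1 FPKM (SD, n = 3 each), 2.13 times higher, and on the log2 scale the difference was 1.06 with a standard error of 0.11 (limma, adjusted p = 0.0027). It passed under all 17 alternatives, with a log2 fold change between 0.96 and 1.12. The exact two-sided permutation test gave p = 0.10 for CXCL2, as for CXCL8, CXCL3 and CXCL1, the smallest that 3 libraries against 3 allow.

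CXCL8 (ENSG00000169429, chr4:73740506-73743716, plus strand), which encodes interleukin-8, measured 50.9, 50.8 and 48.3 FPKM in lentivirus-NC and 73.6, 122 and 90.4 FPKM in lentivirus-circCSPP1. Every library of the second group was higher than every lentivirus-NC library, but they differed widely among themselves, with replicate 1 the lowest and replicate 2 the highest. The means were 49.99 ± 1.51 and 95.4 ± 24.6 FPKM (SD, n = 3 each), 1.91 times higher, and on the log2 scale the difference was 0.89 with a standard error of 0.17 (limma, adjusted p = 0.019). The adjusted p was 0.075, 0.083 and 0.080 without lentivirus-NC replicates 1, 2 and 3, 0.066 without lentivirus-circCSPP1 replicate 3 and 0.096 with unmoderated variances, so the call was lost without any 1 of these 4 libraries. The CXCL8 transcript has 33.4% GC, the lowest of the 10 members. After the correction for GC content and length its values in lentivirus-circCSPP1 were 111, 99.5 and 84.6 FPKM, closer together. The log2 fold change was then 1.02 (limma, adjusted p = 0.00099). The corrected lentivirus-circCSPP1 values of CXCL5 and CXCL16 were also closer together. Those of CXCL1, CXCL2, CXCL3 and CCL20 were further apart, with CXCL2 at 120, 81.6 and 82.6 FPKM.

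CXCL3 (ENSG00000163734, chr4:74036589-74038807, minus strand), a close relative of CXCL1 and CXCL2, measured 6.78, 5.88 and 5.48 FPKM in lentivirus-NC and 11.9, 10.1 and 7.73 FPKM in lentivirus-circCSPP1. The groups did not overlap, but the lentivirus-circCSPP1 libraries were spread. The log2 fold change was 0.61 (standard error 0.16, 95% interval 0.23 to 0.99) and the adjusted p of 0.053 missed the threshold. It passed in 4 of 17 alternatives, with an adjusted p between 0.042 and 0.18.

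CXCL1 (ENSG00000163739, chr4:73869393-73871242, plus strand), the founding member of the group, was the member whose libraries all lay lower in lentivirus-circCSPP1. It measured 27.9, 28.4 and 29.2 FPKM in lentivirus-NC and 22.9, 23.9 and 22.6 FPKM in lentivirus-circCSPP1. The spread within each group was small, 28.5 ± 0.629 and 23.1 ± 0.702 FPKM (SD, n = 3 each), a ratio of 0.812. The log2 fold change was -0.29 (standard error 0.085, 95% interval -0.49 to -0.09, adjusted p = 0.069 from limma), short of the threshold. It passed without lentivirus-circCSPP1 replicate 1 (adjusted p = 0.022), after the GC and length correction (0.043) and with unmoderated variances (0.026), and its log2 fold change was negative in all 17 alternatives.

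CXCL5 (ENSG00000163735, chr4:73995642-73998779, minus strand), the remaining neutrophil chemokine among the members, measured 4.25, 3.87 and 4.11 FPKM in lentivirus-NC and 2.99, 4.27 and 4.54 FPKM in lentivirus-circCSPP1. The groups overlapped, with replicate 1 of lentivirus-circCSPP1 below all other libraries. The log2 fold change was -0.06, with a 95% interval of -0.40 to 0.29.

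Among the 7 tested members, values of lentivirus-circCSPP1 lay entirely above those of lentivirus-NC in 3 and entirely below in 1, where 36.4% of all tested genes did not overlap, 16.0% above and 20.5% below. CXCL1, CXCL2 and CXCL3 are paralogs, and the read length and the handling of shared fragments are not stated in the sources used here. Of the windows of 50 bases of the CXCL2 transcript, 9.24% occur unchanged in CXCL1 or CXCL3, and the share was 5.73% for CXCL1 and 5.26% for CXCL3, so part of their fragments could have been split between them. Their sum, which depends less on that split, though each value is divided by its own transcript length, measured 79.9, 77.3 and 78.3 FPKM in lentivirus-NC and 142, 121 and 116 FPKM in lentivirus-circCSPP1, 0.68 higher on the log2 scale (limma with the 3 as a single row, adjusted p = 0.0071).

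**Figure D2:**
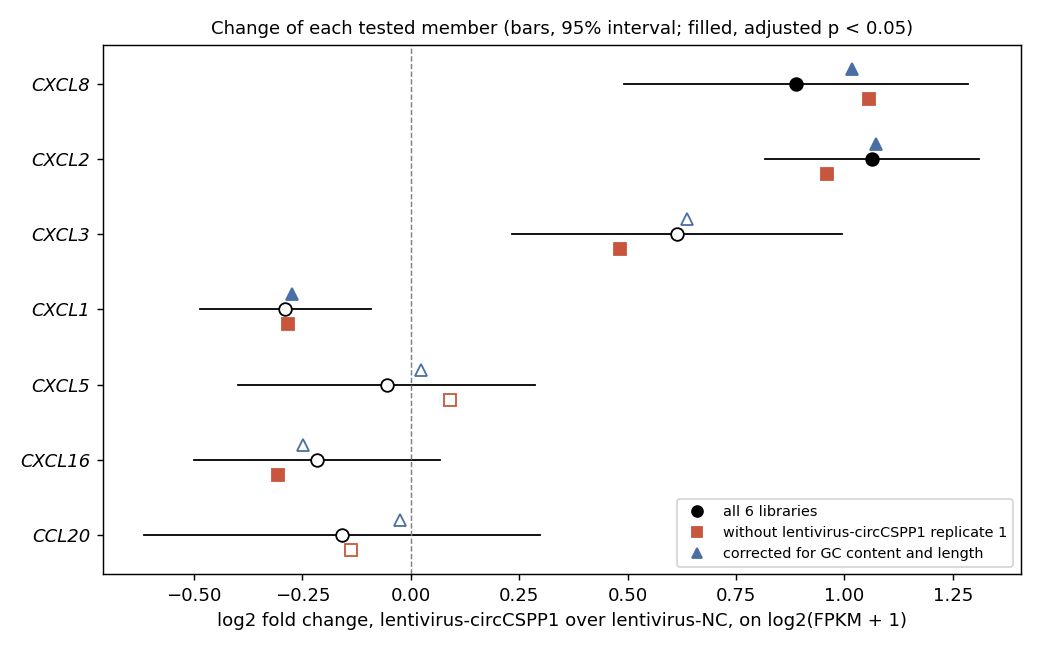
Log2 fold change of each tested member on log2(FPKM + 1), lentivirus-circCSPP1 over lentivirus-NC (horizontal axis), with all 6 libraries (black, bars 95% interval), without lentivirus-circCSPP1 replicate 1 (red) and after correction for GC content and length (blue); filled markers have an adjusted p under 0.05. CXCL8 and CXCL2 are filled in all 3, CXCL3 and CXCL16 when the replicate is left out, and CXCL1 in both alternatives.

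CXCL1 and CXCL5 made up a smaller share of the neutrophil chemokines among the members in every lentivirus-circCSPP1 library than in any lentivirus-NC library. This is a description with no test. A gene that stays level loses share when the sum rises, so the smaller share of CXCL5, whose FPKM overlapped, shows no fall of CXCL5. CXCL6, described below, is not in this sum. CXCL1, CXCL2, CXCL3, CXCL5 and CXCL8 together measured 135, 132 and 131 FPKM in lentivirus-NC and 219, 247 and 211 FPKM in lentivirus-circCSPP1, 1.70 times higher on average and without overlap. CXCL1 made up 20.7% to 22.3% of this sum in lentivirus-NC and 9.68% to 10.7% in lentivirus-circCSPP1, and CXCL5 2.93% to 3.15% and 1.37% to 2.15%. The ratio of CXCL2 to CXCL1 within a library was 1.62, 1.51 and 1.496 in lentivirus-NC and 4.68, 3.63 and 3.81 in lentivirus-circCSPP1, and that of CXCL8 to CXCL1 was 1.65 to 1.82 and 3.21 to 5.10.

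**Figure D3:**
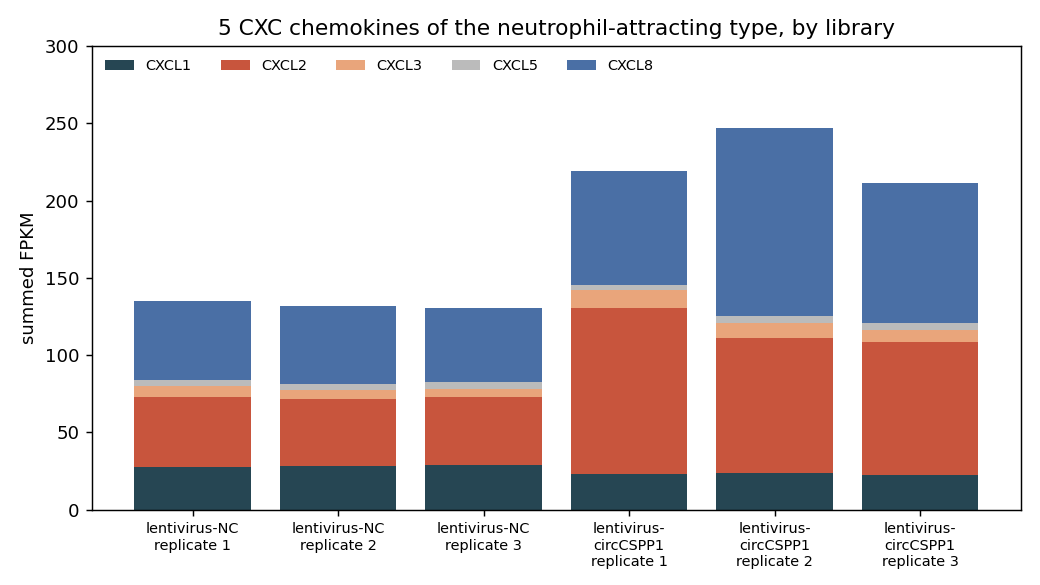
Summed FPKM (vertical axis, from 0) of CXCL1, CXCL2, CXCL3, CXCL5 and CXCL8 in each library, stacked by gene. The 3 lentivirus-circCSPP1 libraries reach 211 to 247 FPKM and the 3 lentivirus-NC libraries 131 to 135 FPKM, with the added height in CXCL2 and CXCL8.

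These 5 genes share a stretch of chromosome 4 (GRCh38), from 73740506 at the start of CXCL8 to 74099293 at the start of CXCL2, 359 kb with 9 genes of the table in it. In order along the chromosome, CXCL8 rose, CXCL6 fell, CXCL1 was lower without passing, CXCL5 overlapped, CXCL3 was higher without passing and CXCL2 rose. CXCL6, which is no member and encodes another ligand of CXCR1 and CXCR2, measured 3.27, 2.91 and 2.80 FPKM in lentivirus-NC and 0.68, 0.85 and 1.02 FPKM in lentivirus-circCSPP1. Its log2 fold change was -1.11 (limma, adjusted p = 0.0032), and it passed in all 16 alternatives in which it was tested. CXCL6 passed the filter on low values only through lentivirus-NC, the group where it is higher. The platelet chemokine genes PF4V1 and PPBP were at 0 in all libraries and PF4 at 0.17 FPKM or less. CXCL8 and CXCL6, neighbours along the chromosome among these 9, changed in opposite directions.

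**Figure D4:**
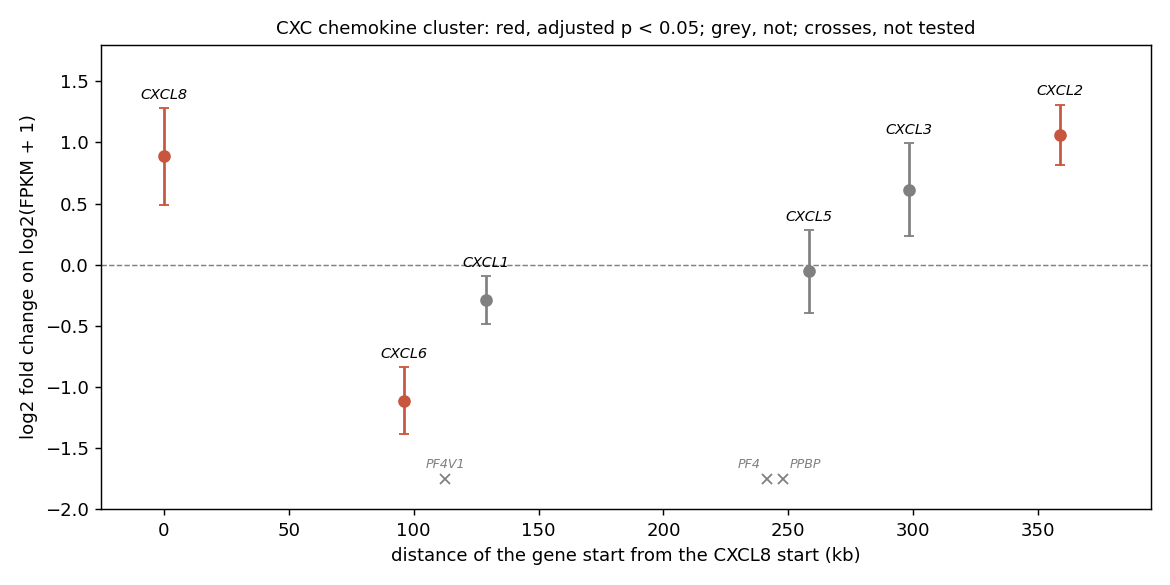
Log2 fold change on log2(FPKM + 1) with its 95% interval (vertical axis) against the distance of the gene start from the CXCL8 start in kb (horizontal axis), for the 9 genes between CXCL8 and CXCL2. CXCL8 and CXCL2 at the ends are higher and CXCL6 is lower (red, adjusted p under 0.05), and crosses mark the 3 genes not tested. CXCL6 passed the filter only through lentivirus-NC.

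All 10 members hold the AU-rich pentamer ATTTA in the longest annotated 3′ UTR (GENCODE release 29), as do 71.9% of the 12221 tested genes with a 3′ UTR, but its density was above the median of those genes in all members except CXCL16. CXCL2 held 13.9 copies per kilobase, CXCL3 10.4, CXCL8 7.19, CXCL1 7.08 and CXCL5 5.51, while CXCL16 held 1.02, against a median of 1.6 over the tested genes. The overlapping repeat ATTTATTTA was present in CXCL1, CXCL2, CXCL8 and IL1B, 4 of 10 members, against 7.37% of the tested genes. The densest 30 bases of 4 members are shown because members that passed the test and members that did not share this element, with ATTTA in capitals.
CXCL2: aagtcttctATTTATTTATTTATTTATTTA
CXCL1: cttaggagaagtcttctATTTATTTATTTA
CXCL3: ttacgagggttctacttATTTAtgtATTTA
CXCL8: taacctATTTAttATTTAtgtATTTATTTA
CXCL2 and CXCL8, which rose, have 5 and 4 pentamers in this window. CXCL1 and CXCL3, which did not pass the test, have 3 and 2. Whether these counts go with the changes was not tested. The microRNA of the study's axis, hsa-miR-520h, reads aCAAAGUGcuucccuuuagagu (RefSeq, GRCh38.p14), with its seed in capitals. A match to the whole seed, CACTTTG, was present in the 3′ UTR of 1 of the 10 members, CXCL5, in cctggattcctCACTTTGaagagtgtgagg from its base 152, against 25.3% of the tested genes, and neither CXCL2 nor CXCL8 has one.

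CXCL16 (ENSG00000161921, chr17:4733526-4739922, minus strand) measured 10, 10.7 and 9.21 FPKM in lentivirus-NC and 9.67, 7.94 and 7.77 FPKM in lentivirus-circCSPP1. The groups overlapped through lentivirus-circCSPP1 replicate 1 alone, and the log2 fold change was -0.22 (95% interval -0.50 to 0.07, adjusted p = 0.29 from limma). Without that library it was -0.31 (adjusted p = 0.045), and after the GC and length correction -0.25 (adjusted p = 0.061). With 56.0% GC, its transcript is the richest in GC of the 10.

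CCL20 (ENSG00000115009, chr2:227805739-227817564, plus strand) measured 9, 10.7 and 5.83 FPKM in lentivirus-NC and 7.06, 7.79 and 7.09 FPKM in lentivirus-circCSPP1. Here the control libraries were the more spread, and the lentivirus-circCSPP1 values fell inside their range. The log2 fold change was -0.16 (standard error 0.20, 95% interval -0.61 to 0.30), and it was 0.0074 without lentivirus-NC replicate 2.

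CCL2, IL1A and IL1B were close to absent in both groups and did not pass the filter. CCL2 was at 0 in 5 libraries and at 0.12 FPKM, about 3 fragments, in lentivirus-circCSPP1 replicate 2; at these depths a count of 0 allows up to 0.111 to 0.140 FPKM. IL1A was at 0 in 4 libraries, at 0.01 FPKM in lentivirus-NC replicate 3 and at 0.03 FPKM in lentivirus-circCSPP1 replicate 3, which is about 1 and 2 fragments. IL1B measured 0, 0.20 and 0.06 FPKM in lentivirus-NC, about 9 fragments at most, and was at 0 in all 3 lentivirus-circCSPP1 libraries, where a count of 0 allows up to 0.0529 to 0.0634 FPKM. A difference of these genes between the groups was not detectable at this depth, and the limits cover counting error only.

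Set in order of level, lentivirus-NC had CXCL8, CXCL2, CXCL1, CXCL16, CCL20, CXCL3 and CXCL5. CXCL16 and CCL20 overlapped there, as did CCL20 and CXCL3, and the other neighbours did not. In lentivirus-circCSPP1 the order of the means was CXCL8, CXCL2, CXCL1, CXCL3, CXCL16, CCL20 and CXCL5, and CXCL8 overlapped with CXCL2, CXCL3 with CXCL16, and CXCL16 with CCL20.

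The receptors named above for the chemokines among the members were nearly silent. CXCR2 was at 0 in all libraries, CXCR1 at 0.03 FPKM or less, CCR6 at 0.03 or less and CCR2 at 0.04 or less, and CXCR6 ranged from 0.14 to 0.58 FPKM. Of 22 chemokine receptors 2 were tested, and 1 of them, CXCR4, the receptor of CXCL12, rose from 0.653 ± 0.0321 to 1.55 ± 0.133 FPKM (SD, n = 3 each; log2 fold change 0.63, adjusted p = 0.011 from limma). CXCR4 passed the filter on low values only through lentivirus-circCSPP1, the group where it is higher. The adjusted p of CXCR4 was at most 0.062 when 1 library was left out, and it missed the threshold without lentivirus-NC replicate 1, lentivirus-NC replicate 2 or lentivirus-circCSPP1 replicate 3. Of 28 other chemokines 3 were tested, and 1 fell, CXCL6, which passed the filter only through lentivirus-NC, while CCL5 (log2 fold change -0.31, adjusted p = 0.26) and CCL28 (-0.34, adjusted p = 0.084) did not pass. With 2 and 3 genes tested, these counts cannot be read against the 11.4% of all genes called.

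IL1R1, the signalling receptor for IL1A and IL1B, measured 6.02, 7.34 and 6.90 FPKM in lentivirus-NC and 4.43, 5.71 and 7.00 FPKM in lentivirus-circCSPP1, with overlap (log2 fold change -0.22, adjusted p = 0.41). The decoy receptor IL1R2 was at 0.06 FPKM or less and the receptor antagonist IL1RN at 0.16 FPKM or less. Of 39 genes of the IL1 family, its receptors and its signalling chain 26 were tested, and 2 rose and 1 fell, 11.5% of those tested and so near the 11.4% of all genes. IRAK2, a kinase-like adaptor of the IL1 receptor, rose from 14.1 ± 0.645 to 24.5 ± 1.57 FPKM (SD, n = 3 each; log2 fold change 0.76, adjusted p = 0.0057) and passed in all 17 alternatives. ADAM17, a sheddase of membrane proteins, rose by a log2 fold change of 0.45 (adjusted p = 0.037), and CAPN1, a calpain protease that cleaves the IL1A precursor, fell from 221 ± 4.29 to 159 ± 21.0 FPKM (SD, n = 3 each; log2 fold change -0.48, adjusted p = 0.027). Without any 1 lentivirus-NC library, or without lentivirus-circCSPP1 replicate 3, 1 gene of the list passed, and without lentivirus-circCSPP1 replicate 1, 5 did. Over all 12322 tested genes 300 to 407 were called without 1 lentivirus-NC library and 3512 without lentivirus-circCSPP1 replicate 1.

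Of 50 other NF-kB target genes 42 were tested, and 8 rose, 7 fell and 27 did not pass, 35.7% called beside 11.4% of all genes. The list was drawn up with earlier results of these data known, so this share is not independent of them. The median log2 fold change was -0.02, near that of all genes. The 8 that rose were GADD45B, RELB, CSF2, LIF, LCN2, NFKB2, IRF1 and NFKBIB. RELB and NFKB2, subunits of the alternative NF-kB dimer, went from 25.2 ± 1.57 to 47.2 ± 7.24 FPKM and from 101 ± 10.2 to 152 ± 16.9 FPKM (SD, n = 3 each), log2 fold changes of 0.87 (adjusted p = 0.0075) and 0.58 (adjusted p = 0.020). LIF, a cytokine of the IL6 family, rose by 0.68 (adjusted p = 0.0058), CSF2, the growth factor GM-CSF, by 0.69 (adjusted p = 0.023) and GADD45B, a stress-response gene, by 0.94 (adjusted p = 0.0037).

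The 7 NF-kB targets that fell were IL6, LTB, SAA1, SAA2, BCL2A1, PTGES and C3. LTB, a membrane ligand of the tumour necrosis factor family, measured 29.3, 31.3 and 29.3 FPKM in lentivirus-NC and 12.5, 9.46 and 7.92 FPKM in lentivirus-circCSPP1, a difference of -1.52 on the log2 scale (adjusted p = 0.0029). The acute-phase genes SAA1 and SAA2 had log2 fold changes of -1.16 and -1.05 (adjusted p = 0.0023 each), and are near-identical copies whose fragments could be split. IL6 (-1.81, adjusted p = 0.0039), BCL2A1, a survival gene (-0.87, adjusted p = 0.020), PTGES, a prostaglandin synthase (-0.76, adjusted p = 0.0049), and C3, the central complement component (-0.73, adjusted p = 0.036), were the others. Of the 15, 8 passed under every alternative: GADD45B, RELB, LIF, IL6, LTB, PTGES, SAA1 and SAA2. The count of 15 became 8 without any 1 lentivirus-NC library and 9 without lentivirus-circCSPP1 replicate 3. Over all 12322 tested genes the count fell too, from 1399 to 300, 317 and 407 without lentivirus-NC replicates 1, 2 and 3. The feedback inhibitors NFKBIA (log2 fold change -0.34) and TNFAIP3 (-0.09), named after their values were seen, did not pass.

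**Figure D5:**
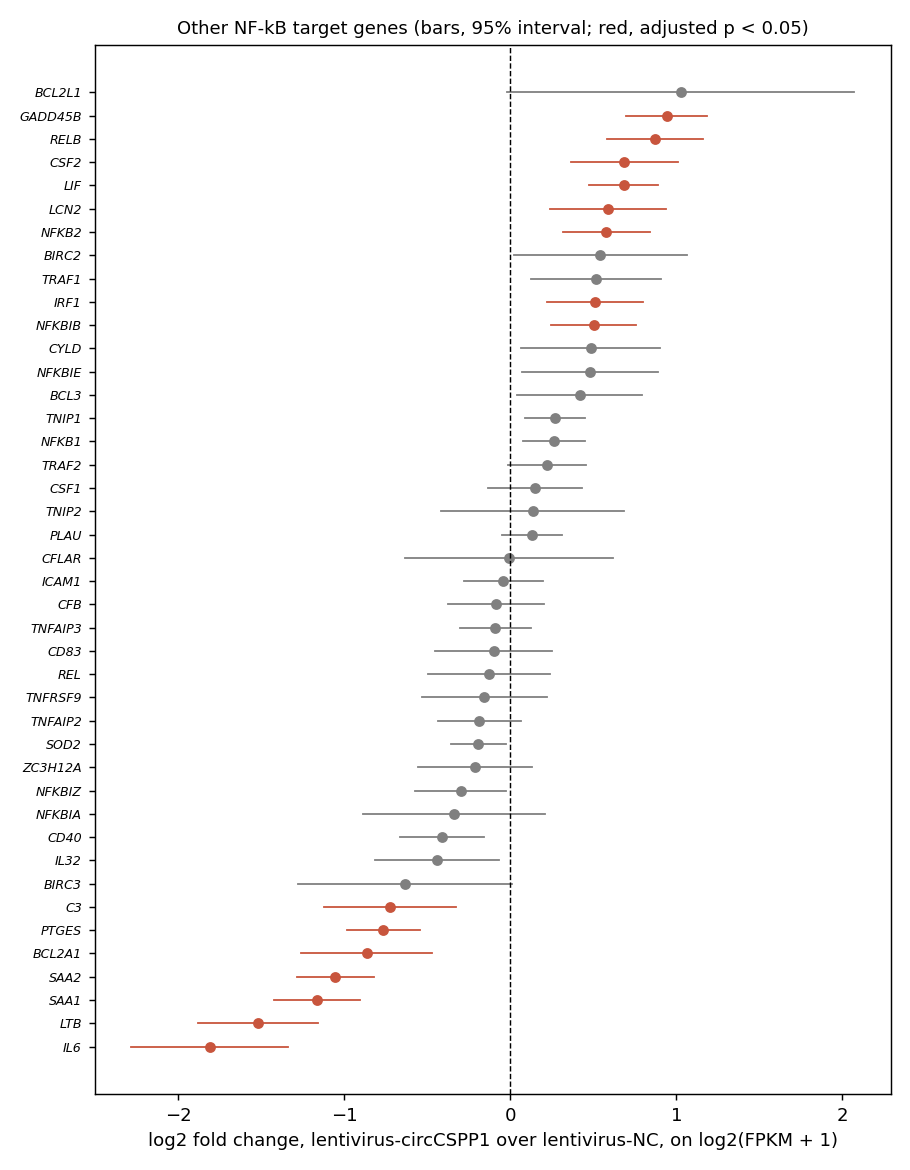
Log2 fold change on log2(FPKM + 1), lentivirus-circCSPP1 over lentivirus-NC, with its 95% interval (horizontal axis) for the 42 tested NF-kB target genes outside the 10 ligands, ordered by value. Red marks the 15 with an adjusted p under 0.05, 8 higher and 7 lower.

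Among 14 regulators of AU-rich mRNAs, all tested, 3 passed the test, all higher, 21.4% beside 11.4% of all genes called and 4.69% called higher. This list, too, was drawn up with earlier results of these data known, so its share is not independent of them. DUSP1, a phosphatase that acts on MAP kinases, went from 33.3 ± 0.929 to 57.01 ± 8.40 FPKM (SD, n = 3 each; log2 fold change 0.75, adjusted p = 0.011), KHSRP, an RNA-binding decay factor, from 282 ± 4.40 to 344 ± 9.46 FPKM (0.29, adjusted p = 0.031), and ZFP36L2, of the ZFP36 family, from 9.38 ± 0.378 to 12.7 ± 0.618 FPKM (0.40, adjusted p = 0.042). ZFP36 itself, named after its values were seen, measured 14.8 to 16.3 FPKM and 12.1 to 20.8 FPKM, with overlap. The count of 3 was 7 without lentivirus-circCSPP1 replicate 1. It was 0 without lentivirus-NC replicate 1, lentivirus-NC replicate 2 or lentivirus-circCSPP1 replicate 3, and 1 without lentivirus-NC replicate 3 or lentivirus-circCSPP1 replicate 2. Over all 12322 tested genes the count moved the same way, to 3512 without lentivirus-circCSPP1 replicate 1 and 300 without lentivirus-NC replicate 1.

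CXCL2 had the largest change among the tested members, and the 5 tested genes outside the list most like it over the 6 libraries were SPRY2, G0S2, ZNF777, MLLT6 and SSRP1. Pearson's r on log2(FPKM + 1) ran from 0.998 to 0.999 over 6 libraries that share 2 groups, so the likeness is mostly the difference between the groups. In each of the 5, as in CXCL2, lentivirus-circCSPP1 replicate 1 was the highest library. G0S2 measured 80.9 to 88.4 FPKM in lentivirus-NC and 233 to 328 FPKM in lentivirus-circCSPP1, SPRY2 10.8 to 11.6 and 19.95 to 23.9, and SSRP1 the smallest difference of the 5, 356 to 360 and 391 to 406.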

How the data were processed

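Polyadenylated RNA of 3 lentivirus-NC and 3 lentivirus-circCSPP1 DU145 libraries was sequenced from both ends (Illumina NovaSeq). The authors deposited FPKM values, 1 per gene and library, rounded to 2 decimals. The submitters' processing notes name build hg38; the aligner, counting program and annotation are not given in the sources used here. Columns were matched to samples by group and replicate number, and 0 columns were left unused. FPKM also moves when other genes take more of a library. The 10 members and all lists were chosen with earlier results of these data known.

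Values were taken to log2(FPKM + 1), 12322 genes averaging 1 FPKM or more were tested and 7405 were not. Groups were compared with limma 3.58.1 in R 4.3.3 (trended eBayes without covariates, two-sided tests, Benjamini-Hochberg), which was tested on simulated data. Besides the members, genes of the other lists past an adjusted p of 0.05 were named, and the 5 genes most like the member with the largest change. Depth came from the steps between low values of single-transcript genes shorter than 800 nt (tolerance 0.15 of a step). Transcripts, coordinates and 3′ UTRs were from GENCODE release 29 (GRCh38), promoters and the microRNA from RefSeq. Alternatives were other pseudocounts, filters, scalings and variance models, a replicate block, a GC and length correction, and leaving out each library; summing CXCL1, CXCL2 and CXCL3 was added after seeing the data.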

Additional observations from a re-analysis of the deposited data

How the results depend on the processing

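Of 592 values of single named genes under the alternatives, 493 kept their direction and side of the threshold, 85 no longer passed, 10 passed newly and 4 changed sign without passing in either setting; the cause was not tested. The 4 were CXCL5 with quantile normalization (0.041), after the GC and length correction (0.023) and without lentivirus-circCSPP1 replicate 1 (0.091), and CCL20 without lentivirus-NC replicate 2 (0.0074). Leaving out 1 library gave 300 to 3512 called genes in the whole table, 1 to 5 members with a median log2 fold change of -0.14 to 0.09 (CXCL5 -0.15 to 0.091, CCL20 -0.38 to 0.0074), 1 other chemokine each time, 0 to 1 chemokine receptors, 1 to 5 genes of the IL1 list, 8 to 21 NF-kB targets and 0 to 7 regulators of AU-rich mRNAs. Both extremes of that count came from single libraries, 300 without lentivirus-NC replicate 1 and 3512 without lentivirus-circCSPP1 replicate 1. The GC and length correction gave 3529 called genes, 23 NF-kB targets (14 higher), 6 genes of the IL1 list (3 higher) and 6 regulators of AU-rich mRNAs (5 higher). Unmoderated variances gave 834 genes and 9 NF-kB targets (4 higher). Without a filter 2 other chemokines passed, and with a mean of at least 5 FPKM 0 other chemokines and 0 receptors were called, since CXCL6 and CXCR4 drop out, and the member median was 0.23, since CXCL5 drops out. With quantile normalization the member median was 0.041. Summing CXCL1, CXCL2 and CXCL3 left 2 called, CXCL8 and the sum.

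Whether the replicate numbers pair the libraries could not be decided. Deviations of same-numbered libraries from their group means correlated at 0.073, 0.0065 and 0.057 across genes. Replicates 1 and 3 of lentivirus-circCSPP1 correlated best with the same number, and replicate 2 with lentivirus-NC replicate 3 (0.036). All these values are small, and deviations from a group mean depend on each other. With the replicate number as a block 923 genes were called, 3 members (CXCL2, CXCL3 and CXCL8) and 1 regulator of AU-rich mRNAs.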
